A study of Mus musculus with 2 samples.

Results

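CD8 T cells, the T cells that kill other cells on contact, were described in 2 libraries of mouse tumour cells. A cell was taken as a CD8 T cell when it had at least 500 detected genes and at most 20% mitochondrial counts, at least 2 counts of the CD3 genes Cd3d, Cd3e and Cd3g together, at least 1 count of Cd8a or Cd8b1, and 0 counts of Cd4 and of Foxp3. Limits on macrophage and tumour transcripts were added: Lyz2 under 20 and C1qa, C1qb and C1qc together under 5 per 10000 counts, and at most 2 counts of Hmga2, Tnfrsf12a and Igf2bp2 together. The members were thus chosen by measured counts of 14 genes, and the levels of those genes are given only as descriptions. The rule found 620 of the 24830 cell barcodes, 327 of 11977 in the control library and 293 of 12853 in the knockdown library.

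The tumours are labelled as lung cancer xenografts of LLC, a mouse lung carcinoma cell line. Library NC, the control library, is labelled as control. Library SH, the knockdown library, is labelled with a short hairpin RNA that knocks down GFPT2, an enzyme at the head of the hexosamine pathway. RNA of single cells was counted on the 10x Genomics platform as unique molecular identifiers (UMIs), and the stated interest is the immune cells of the tumour. The host strain, age, number of animals per library, time of growth, hairpin sequence, control construct and number of clones are not given in the sources used here. With 1 library per group no test between groups was possible, so each value has a 95% interval that covers counting error only and says nothing of the spread between animals. UMIs of a gene were summed over the CD8 T cells of a library and divided by all their UMIs, and scaled to the usual CPM unit, a gene's share of all counts. A log2 ratio is the knockdown library over the control library, with the range that the 2 Poisson intervals allow. Control cells and knockdown cells below are the CD8 T cells of the 2 libraries unless another class is named. These intervals take UMIs as independent, although a single cell can hold most of a gene's UMIs. Among the genes with the highest and lowest ratios in CD8 T cells, such cells are named beside the genes they touch. Smaller shares held by 1 cell are not all given, and in NK cells the richest cell was not examined.

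CD8 T cells recognise peptides that other cells display on MHC class I molecules, through a receptor of alpha and beta chains joined to the CD3 proteins, with CD8 as co-receptor. An activated cell releases granules with perforin, which opens the target's membrane, and granzymes, proteases that enter through it, and secretes interferon-gamma and chemokines. In tumours, cells that meet antigen for a long time gain inhibitory receptors such as PD-1 (Pdcd1), TIM-3 (Havcr2) and LAG-3 under the transcription factor Tox, while a smaller pool that expresses Tcf7 is known to renew the response.

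Over all filtered cells Gfpt2, the targeted gene, summed to 295 UMIs for the control tumour and 81 for the knockdown tumour, giving a log2 ratio of -1.60 (-2.10 to -1.12), which goes with the labels. CD8 T cells held 0 and 1 UMI of Gfpt2, with an exact upper bound of 2.46 CPM in the control library, so its level in CD8 T cells was not measurable at this depth. The CD8 T cells held 1498265 UMIs in control and 1212186 in knockdown cells, with a median of 3481 and 3106 UMIs and of 1640 and 1588 genes per cell. The libraries shared 37 barcodes, of which 0 were CD8 T cells in both. Of the 5 markers taken for the class, Prf1 and Pdcd1 were not in the rule: Pdcd1 was at 204 and 242 CPM and Prf1 at 218 and 529 CPM, against at most 3.40 CPM of Prf1 in the cells with no CD3 UMI.

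CD8 T cells made up 2.81% (2.51 to 3.12, exact binomial) of the 11648 filtered control cells and 2.33% (2.08 to 2.61) of the 12560 filtered knockdown cells, a ratio of 0.831 with a range (0.665 to 1.04) that includes 1. Among the CD3-positive cells under the same limits their share was 67.4% of 485 and 68.0% of 431, a ratio of 1.01 (0.885 to 1.15). The limits on macrophage and tumour transcripts left out 306 control and 239 knockdown cells that met every other condition. Without the limits there were 633 and 532 members and the ratio was 0.779 (0.664 to 0.915). The edge of the rule was thinly filled on the CD3 side: 11 and 14 members had exactly 2 CD3 UMIs, and 2 and 3 cells stood just outside with 1. On the CD8 side 60 and 37 members had a single CD8 UMI, while 125 and 114 CD3-positive cells without a UMI of Cd8a, Cd8b1, Cd4 or Foxp3 were left out. Both Cd8a and Cd8b1 were seen in 210 control and 216 knockdown members.

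Transcripts of other cell types were present in the CD8 T cells, and their part in the results was not tested. Of the 11 NK genes listed, Ncr1, the receptor that defines NK cells, and Klra8 were at 0 in both libraries, and the summed level was 910 CPM in control and 544 CPM in knockdown cells, of which Gzma gave 478 and 79.2 CPM. Of the 12 gamma-delta T cell genes listed, 8 were found in the files. Of these 3 were at 0 in both, Trdc had 10 and 0 UMIs, and the sum was 26.7 and 17.3 CPM. Trgc2, a constant gene of the gamma chain, was not in this sum and had 126 and 103 UMIs, at 84.1 and 85.0 CPM. Of 16 macrophage genes none was at 0 in both, and the sum was 1496 and 1504 CPM. The 11 dendritic cell genes summed to 623 and 1188 CPM, of which Cd74 gave 304 and 561 CPM, while Flt3, Xcr1 and Clec9a were at 0 in control and had 4, 5 and 4 UMIs in knockdown cells. The 12 tumour-like genes, with Krt8 and Krt18 at 0, summed to 6229 and 5347 CPM, and the 6 endothelial genes to 74.8 and 23.9 CPM. Of the 112 control UMIs of these endothelial genes 1 cell held 78, and without the richest cell of each library, left out after the data were seen, the sums were 22.8 and 22.5 CPM. The B and plasma cell genes summed to 37.4 and 57.7 CPM, with Ms4a1, Jchain and Mzb1 at 0 in both.

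Across the 6753 genes with at least 30 UMIs in 1 of the libraries, 53 were at least 2-fold higher in the CD8 T cells of the knockdown library (0.785%) and 67 at least 2-fold lower (0.992%), and the median log2 ratio was 0.02. Of these genes 3562 had a ratio above 0 and 3189 below. Without the macrophage and tumour limits 63 were past 2-fold higher and 44 lower, so the balance turned. Among the 2597 genes with at least 100 UMIs in 1 library, 11 were past 2-fold higher and 2 lower. Perforin, 3 granzymes of the Gzmd to Gzmg group, the chemokine Ccl3 and the lectin-like receptor Klrh1 were among the 12 highest ratios. Granzyme A had the lowest ratio, and Igfbp7, Dcn, Ly6c2 and Cxcl10 were among the 12 lowest. Ratios of the members of each gene list below are read against this background, and none is called particular to its list.

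**Figure D1:**
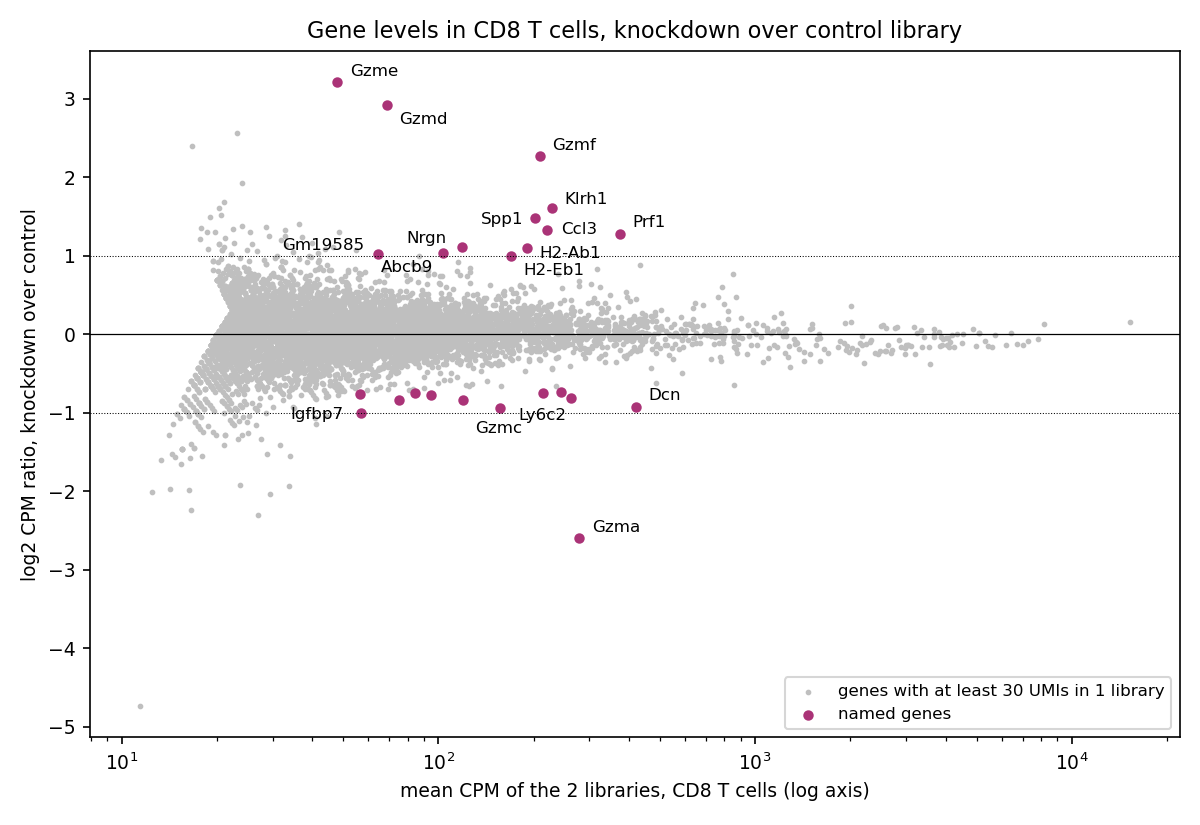
Level (mean CPM of both libraries, log axis) and log2 ratio (knockdown over control) of each gene in the CD8 T cells; grey points are the genes with at least 30 UMIs in 1 library, dark points the 24 named genes, dotted lines 2-fold. Gzma, at -2.59, lies far below the other named genes, and Gzme, Gzmd, Gzmf, Klrh1, Ccl3 and Prf1 lie above the upper line.

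Perforin (Prf1), the pore-forming protein of the granules, had 326 UMIs in 97 of the 327 control cells and 641 UMIs in 120 of the 293 knockdown cells. Its level was 218 CPM (195 to 243) in control and 529 CPM (489 to 571) in knockdown cells, a log2 ratio of 1.28 (1.01 to 1.55). No single cell carried this: the cell with most Prf1 held 11.0% of the control and 7.80% of the knockdown UMIs, and the ratio without both was 1.33. The intervals of the 2 libraries lay far apart. After thinning each cell to 2000 UMIs, which leaves out 39 control and 57 knockdown cells, 23.6% (18.8 to 28.9) and 31.8% (25.9 to 38.1) of cells had a Prf1 UMI, intervals that overlap. Thinned to 1000 UMIs, the shares were 11.1% (7.90 to 15.1) and 24.6% (19.7 to 29.98), which do not overlap, so the ratio of shares was 1.35 at the greater depth and 2.21 at the lesser. Without thinning the shares were 29.7% and 41.0%. In tumour-like cells, which should lack the gene, 0.506% and 0.386% of cells had one although they were deeper, with medians of 23437 and 18582 UMIs.

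Granzyme A (Gzma), a protease of killer cells that cuts after basic residues, went the other way. It had 716 UMIs in 59 control cells and 96 UMIs in 13 knockdown cells, or 478 CPM (444 to 514) and 79.2 CPM (64.1 to 96.7), a log2 ratio of -2.59 (-3.0 to -2.20). The control value did not rest on 1 cell: the richest held 69, 55 and 51 UMIs, and the ratio without the richest cell of each library was -2.80. After thinning, 14.9% (11.0 to 19.6) of control and 3.39% (1.47 to 6.57) of knockdown CD8 T cells had a Gzma UMI. Among the cells that had one, the level was 2801 CPM in control and 2445 CPM in knockdown cells, a ratio of -0.20 (-0.61 to 0.20), but these cells were picked for a Gzma UMI, so this is a description only. In the deeper tumour-like cells 2.12% and 1.33%, without thinning, had a Gzma UMI, at a level of 4.14 and 1.95 CPM. Without the macrophage and tumour limits the ratio was -1.57, with the same sign.

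Granzyme B (Gzmb), the protease best known for starting cell death through caspases, was at 559 CPM (521 to 598) and 738 CPM (690 to 787), a log2 ratio of 0.40 (0.21 to 0.59). The knockdown value included 1 cell with 141 of its 894 UMIs, and the ratio without the richest cells was 0.22 (0.02 to 0.43). The thinned shares of cells with Gzmb were 41.7% and 47.9%, with overlapping intervals, against unthinned shares of 1.64% and 1.68% in tumour-like cells. Granzyme K, found in less differentiated CD8 T cells, was at 76.8 and 75.9 CPM, a ratio of -0.02 (-0.59 to 0.55).

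The neighbouring genes Gzmc, Gzmd, Gzme, Gzmf and Gzmg, which encode further granule proteases of the mouse, were held by few cells. The sequences just before the start sites of 3 of them are shown because the 3 had the highest ratios among genes with at least 100 UMIs in 1 library and are related in sequence, beside those of Gzma and Prf1, which differed in opposite directions. They are taken from RefSeq promoters of GRCm38.p6, 220 to 21 bases before each start, on the gene's own strand. Capitals mark the letters TGTGGT, on either strand, the core that Runx factors bind.
Gzmd, chr14:56132614-56132813, minus strand: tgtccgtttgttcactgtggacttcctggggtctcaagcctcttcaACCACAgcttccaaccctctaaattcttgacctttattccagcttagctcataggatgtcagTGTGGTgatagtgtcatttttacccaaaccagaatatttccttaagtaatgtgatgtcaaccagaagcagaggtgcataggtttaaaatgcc
Gzme, chr14:56120646-56120845, minus strand: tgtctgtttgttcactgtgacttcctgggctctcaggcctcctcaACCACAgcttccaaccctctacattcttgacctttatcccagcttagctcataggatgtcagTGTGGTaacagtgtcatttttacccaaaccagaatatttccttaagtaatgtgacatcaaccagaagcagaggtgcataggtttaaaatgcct
Gzmf, chr14:56211428-56211627, minus strand: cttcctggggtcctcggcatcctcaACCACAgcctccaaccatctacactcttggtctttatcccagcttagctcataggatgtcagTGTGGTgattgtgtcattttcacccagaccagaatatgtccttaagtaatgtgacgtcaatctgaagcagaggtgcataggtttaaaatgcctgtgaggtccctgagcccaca
Gzma, chr13:113101002-113101201, minus strand: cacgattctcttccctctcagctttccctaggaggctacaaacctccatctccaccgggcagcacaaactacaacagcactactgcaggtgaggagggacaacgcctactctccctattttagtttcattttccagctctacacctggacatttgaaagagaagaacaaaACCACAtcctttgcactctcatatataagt
Prf1, chr10:61297616-61297815, plus strand: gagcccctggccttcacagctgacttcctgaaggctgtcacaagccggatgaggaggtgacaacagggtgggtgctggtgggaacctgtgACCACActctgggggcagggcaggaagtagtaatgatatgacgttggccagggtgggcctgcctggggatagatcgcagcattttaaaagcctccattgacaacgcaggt

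Gzmd and Gzme matched at 94.0% of aligned columns, Gzmd and Gzmf at 72.5%, and Gzma and Prf1 at 49.0%. The Runx letters stood 2 times in each of the Gzmd, Gzme and Gzmf stretches and once in those of Gzma and Prf1, and 11.5% of 32851 promoter stretches of this length hold them at all. The AP-1 letters TGANTCA, searched on both strands, were in none of the 5 and in 5.55% of all stretches. These are matches of letters and say nothing of binding. The transcripts are alike as well: of the stretches of 50 bases in Gzmd, 21.5% also occur in another granzyme, against 19.1% for Gzme, 15.2% for Gzmg, 7.36% for Gzmf, 4.14% for Gzmc and 0% for Gzma, Gzmb and Gzmk. Counts of Gzmd, Gzme and Gzmg are therefore uncertain among themselves.

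Gzmf had 108 UMIs in 13 control cells and 420 UMIs in 17 knockdown cells, or 72.1 and 346 CPM, a log2 ratio of 2.27 (1.85 to 2.69). One control cell held 76 of the 108, and 3 knockdown cells held 104, 90 and 80 of the 420. Gzmd had 24 UMIs in 2 control cells and 147 in 5 knockdown cells, a ratio of 2.92, and Gzme 14 in 2 and 105 in 5, a ratio of 3.21. Both of these rested on 1 knockdown cell, which held 143 of the Gzmd, 93 of the Gzme, 53 of the Gzmf and all 38 Gzmg UMIs. That cell had 2664 UMIs, with 13 of Cd3g, 1 of Cd8a, 3 of Cd8b1 and 0 of Ncr1. Without the richest cell of each library the ratio was -0.50 (-3.42 to 2.17) for Gzmd, 1.08 (-0.91 to 3.20) for Gzme and 3.61 (2.95 to 4.32) for Gzmf. Gzmc, at 206 and 107 CPM, had a ratio of -0.94 (-1.36 to -0.53), but 1 control cell held 188 of its 309 UMIs and the ratio without the richest cells was 0.02.

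**Figure D2:**
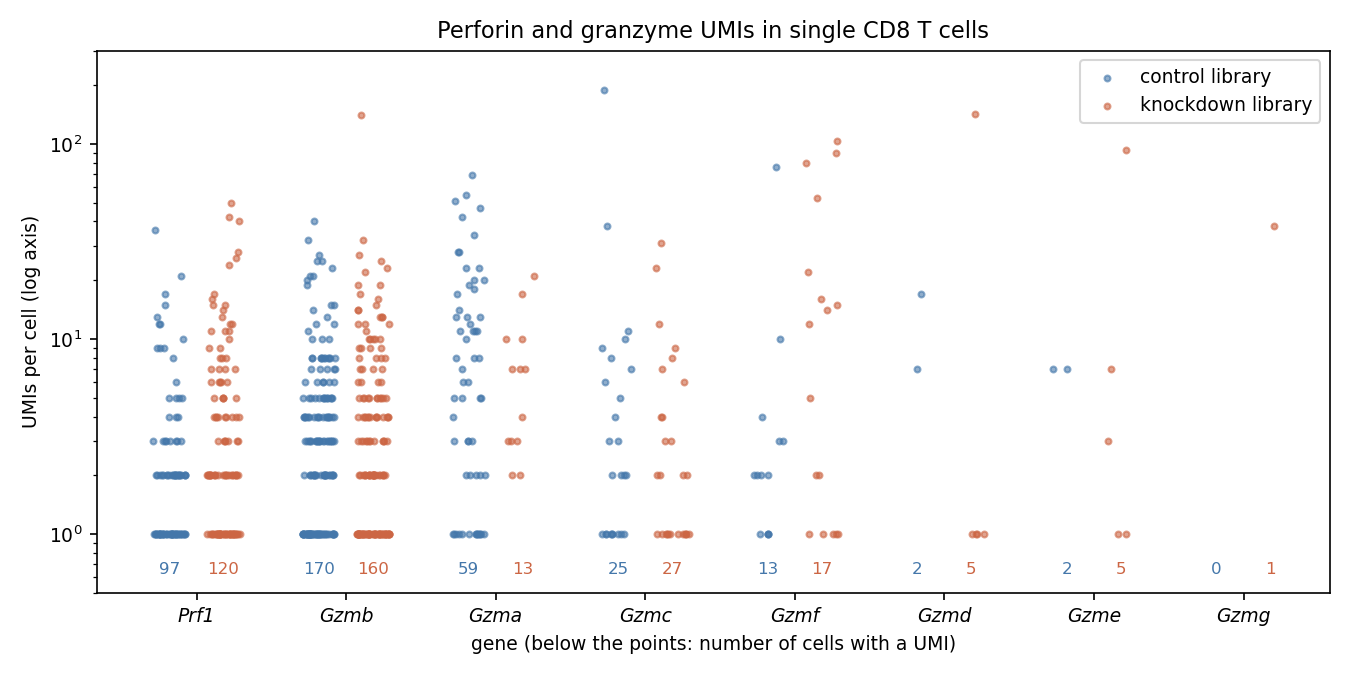
UMIs of perforin and 7 granzymes in each CD8 T cell that had at least 1 (log axis), in the control and knockdown libraries, with the number of such cells under the points. Gzma was held by 59 control cells, the richest with 69 UMIs, and 13 knockdown cells, the richest with 21, whereas Gzmd, Gzme and Gzmg in the knockdown library rest on a single high cell.

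Of the 18 genes listed for cytotoxic granules 17 were counted, and the median was 0.23. At least 2-fold higher were 5 (Prf1, Gzmd, Gzme, Gzmf and Gzmg) and lower 1 (Gzma), beside 0.785% and 0.992% of all 6753 genes. The knockdown UMIs of Gzmd, Gzme and Gzmg came mostly from 1 cell, so these genes are not separate cases. Without the 15 control and 20 knockdown cells that held a UMI of Gzmd to Gzmg, a split made after the data were seen, the median was 0.04; this takes Gzmd, Gzme, Gzmf and Gzmg out of the list by construction. The death ligand Fasl was at 62.1 and 101 CPM, a ratio of 0.70 (0.14 to 1.26). The granule membrane gene Nkg7 had a ratio of 0.35 (0.24 to 0.46) and Srgn, the core protein on which granule contents are packed, of 0.26 (0.12 to 0.41). The cathepsin Ctsw was at 503 and 442 CPM, a ratio of -0.19 (-0.41 to 0.04) within counting error.

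Among secreted factors, Ccl3, a chemokine that attracts myeloid and T cells, had 187 UMIs in 52 control cells and 381 in 83 knockdown cells. Its level was 125 CPM (108 to 144) and 314 CPM (284 to 348), a log2 ratio of 1.33 (0.98 to 1.69). In the control library 2 cells held 46 and 37 of the 187 UMIs. The thinned shares were 9.03% (5.98 to 12.9) and 24.6% (19.2 to 30.6), which do not overlap. In tumour-like cells 4.20% and 7.02% had a Ccl3 UMI, and in all cells without CD3 UMIs, which include macrophages that make Ccl3, 24.4% and 24.9%. Those shares are unthinned and from cells of higher depth, with medians of 11585 and 8248.5 UMIs, so no order is read from them. By level the cells without CD3 UMIs had 55.5 and 71.6 CPM of Ccl3, below the CD8 T cells of both libraries. Ccl4, its near relative, was at 624 and 948 CPM, a ratio of 0.60 (0.43 to 0.78).

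Interferon-gamma (Ifng), the cytokine that induces MHC and chemokines in target cells, was at 597 CPM (559 to 638) and 775 CPM (727 to 827), a ratio of 0.38 (0.19 to 0.56). Thinned, 54.9% and 62.7% of CD8 T cells had an Ifng UMI, with overlapping intervals, against unthinned shares of 0.948% and 1.61% in tumour-like cells. Ccl5, a chemokine stored by effector and memory T cells, was lower, at 2485 CPM and 1919 CPM, a ratio of -0.37 (-0.48 to -0.27). Xcl1, which attracts cross-presenting dendritic cells, was at 176 and 179 CPM, a ratio of 0.02 (-0.35 to 0.39). Tnf was at 126 and 140 CPM, a ratio of 0.15 (-0.28 to 0.58). Over the 12 counted genes of this list, 2 were past 2-fold higher (Ccl3 and Spp1) and 0 lower, beside 0.785% and 0.992% of all 6753 genes. The median was 0.36. Without the macrophage and tumour limits the ratio of Ccl3 was 0.89, no longer past 2-fold, and the list's median was 0.05.

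Of the 12 counted checkpoint receptors 10 had a ratio above 0 and 2 below, beside 3562 and 3189 of all 6753 genes, the median was 0.30, and none was past 2-fold. Havcr2 (TIM-3), an inhibitory receptor of chronically stimulated cells, was at 58.1 CPM (46.5 to 71.6) in control and 115 CPM (97.2 to 136) in knockdown cells, a log2 ratio of 0.99 (0.44 to 1.55). It was found in 53 control and 83 knockdown cells, and after thinning in 9.38% (6.27 to 13.3) and 21.2% (16.2 to 27.0), against unthinned shares of 4.71% and 4.0% in tumour-like cells. Lag3, which binds MHC class II and other ligands, was at 90.1 and 162 CPM, a ratio of 0.84 (0.39 to 1.30). Its thinned shares were 17.0% and 28.8%, whose intervals do not overlap, against unthinned shares of 2.69% and 3.54% in tumour-like cells. Pdcd1 was at 204 CPM (181 to 228) and 242 CPM (215 to 271), a ratio of 0.25 (-0.08 to 0.58). Ctla4 had a ratio of 0.40 (-0.04 to 0.84), Tigit of 0.43 (-0.58 to 1.46) and Entpd1, the ectoenzyme CD39, of 0.32 (-0.24 to 0.88), all within counting error of 0.

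Of the transcription factors of effector and exhausted cells, 17 counted, 13 had ratios above 0, beside 3562 of all 6753 genes, and none passed 2-fold. Tox, the factor that sustains the exhausted state, was at 435 and 528 CPM, a ratio of 0.28 (0.05 to 0.50). Irf8 was at 178 and 301 CPM, a ratio of 0.76 (0.44 to 1.09). Ikzf2 (Helios) was at 297 and 224 CPM, a ratio of -0.41 (-0.72 to -0.10). Tbx21 (T-bet), the factor of the killer programme, had a ratio of 0.32 (-0.03 to 0.66) and Eomes of 0.56 (-0.26 to 1.39). The costimulatory receptor Tnfrsf9 (4-1BB), which is induced by antigen receptor signals, was at 639 and 884 CPM, a ratio of 0.47 (0.29 to 0.65), and Cd27 had a ratio of 0.64 (0.14 to 1.15). Cd69, an early activation marker, was at 264 and 195 CPM, a ratio of -0.44 (-0.77 to -0.11).

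**Figure D3:**
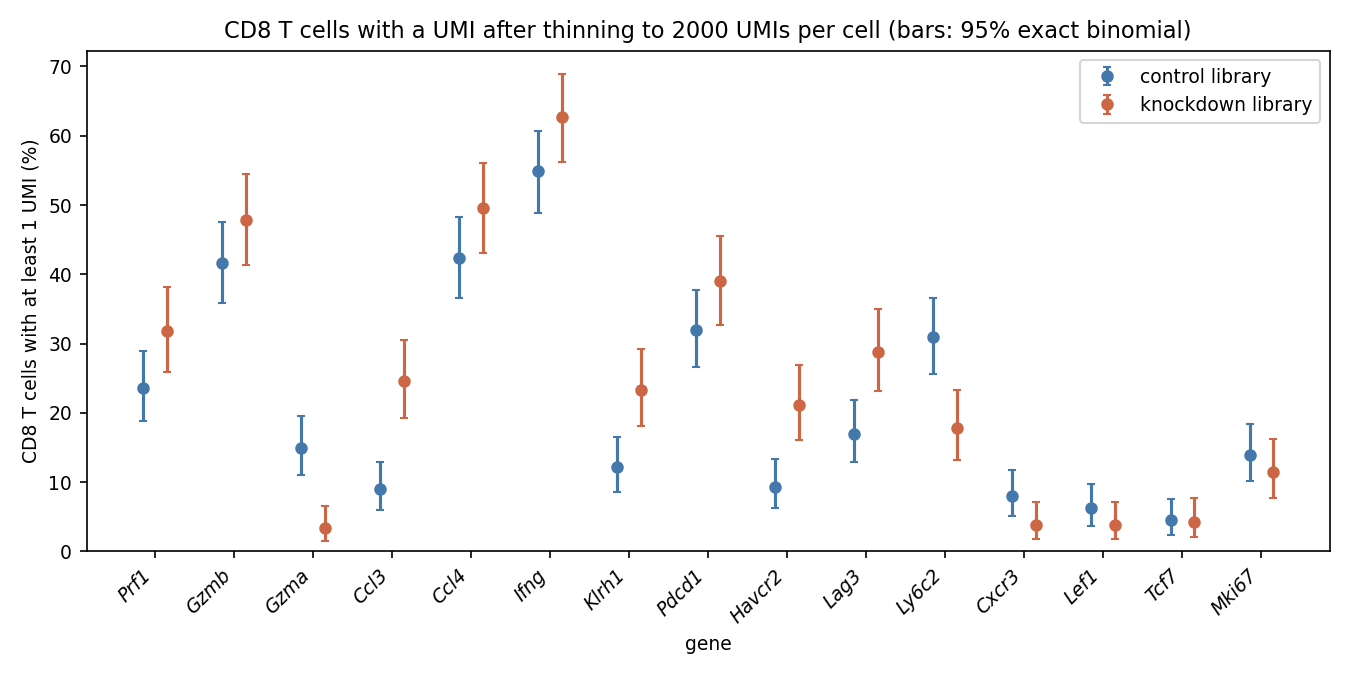
Share of CD8 T cells with at least 1 UMI of each gene after thinning every cell to 2000 UMIs (288 control and 236 knockdown cells), with exact binomial 95% intervals. The intervals of Ccl3, Klrh1, Havcr2 and Lag3 lie higher in the knockdown library without overlap, those of Gzma and Ly6c2 lower, and those of the other genes overlap.

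The killer lectin-like receptors, which bind MHC-like ligands and tune killing, had a median of 0.48 over 9 counted genes. Of these 3 were past 2-fold higher and none lower, beside 0.785% and 0.992% of all 6753 genes. Klrh1 had 169 UMIs in 43 control cells and 416 in 82 knockdown cells, or 113 CPM (96.4 to 131) and 343 CPM (311 to 378), a log2 ratio of 1.61 (1.25 to 1.97). Its richest cell held 7.69% and 5.05% of the UMIs, and the ratio ranged from 1.35 to 1.65 over the alternatives run. The thinned shares were 12.2% (8.61 to 16.5) and 23.3% (18.1 to 29.2), against 0.158% and 0.211% of tumour-like cells. Klrd1 (CD94), the partner chain of the NKG2 receptors, was at 726 and 1012 CPM, a ratio of 0.48 (0.31 to 0.65). Klrc1 (NKG2A), its inhibitory partner, had a ratio of 0.20 (-0.09 to 0.49), and Klrk1 (NKG2D), an activating receptor, of -0.05 (-0.45 to 0.34). Klri2 had a ratio of 1.11 (0.35 to 1.90), with 44 and 77 UMIs, and Klra7 of 1.33 (0.40 to 2.29), held by 6 control and 7 knockdown cells. Reads of this family can fall on close relatives, so the split between its members is uncertain.

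Of the 11 counted genes of naive and memory cells, 8 had a ratio above 0 and 3 below, beside 3562 and 3189 of all 6753 genes. The range lay below 0 for 2 of them (Ly6c2 and Lef1) and above 0 for 0, where over all 6753 genes it lay below 0 for 2.59% and above 0 for 2.96%. Ly6c2, a surface protein of memory and interferon-exposed CD8 T cells, was at 269 CPM (243 to 297) and 160 CPM (138 to 184). Its ratio was -0.75 (-1.10 to -0.40). The thinned shares of Ly6c2 were 30.9% and 17.8%, against unthinned shares of 1.68% and 0.877% in tumour-like cells. Lef1, which acts beside Tcf7 in naive and memory cells, had 59 and 19 UMIs, a ratio of -1.33 (-2.43 to -0.29). Tcf7 had 37 and 30 UMIs and the same level of 24.7 CPM in both libraries. Its share of cells, 7.95% and 6.14%, was below the 22.1% and 16.5% of the deeper tumour-like cells, whose level was 10.7 and 9.21 CPM, so the share of cells with Tcf7 is not read as expression. The median of the 11 counted genes was 0.13, with Lef1 the 1 past 2-fold, beside 0.992% of all 6753 genes past 2-fold lower.

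Among receptors that guide cells through tissue, Cxcr3, the receptor of the interferon-induced chemokines Cxcl9 and Cxcl10, had 55 UMIs in 42 control cells and 20 UMIs in 18 knockdown cells, a ratio of -1.15 (-2.25 to -0.12). Itgb1 was at 288 and 181 CPM, a ratio of -0.66 (-1.0 to -0.33), and Itgb7 had a ratio of -0.69 (-1.32 to -0.08). Cxcr6, a receptor of tissue-resident cells, was at 344 and 462 CPM, a ratio of 0.43 (0.18 to 0.67), and Itga4 at 147 and 224 CPM, a ratio of 0.61 (0.24 to 0.98). The median of the 12 counted genes was 0.08.

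Of 25 interferon-induced genes, 20 had ratios below 0 and 5 above, beside 3189 and 3562 of all 6753 genes, none passed 2-fold, and the median was -0.17. Ifit1 was at 172 and 114 CPM, a ratio of -0.59 (-1.02 to -0.17), Irf7 had a ratio of -0.62 (-1.14 to -0.12) and Igtp of -0.71 (-1.29 to -0.14). Isg15 was at 358 and 356 CPM, a ratio of -0.01 (-0.27 to 0.26). Without the macrophage and tumour limits the list's median was 0.12, so its sign rests on that choice. Rsad2, an antiviral enzyme, had a ratio of -0.75 and the chemokine Cxcl10 of -0.74, but both were more abundant in the cells without CD3 UMIs (142 and 191 CPM, and 344 and 517 CPM). Without the limits both ratios changed sign, to 0.21 and 0.38. The part of transcripts from other cells in these 2 genes was not tested.

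Genes of cell division and metabolism had medians near 0. The 18 counted G2 and M phase genes had a median of -0.07, as had the 19 counted S phase genes. All 20 genes of the first list summed to 1731 and 1734 CPM and all 20 of the second to 1926 and 1934 CPM. Mki67 was at 90.8 and 85.8 CPM. The 16 glycolysis genes summed to 11162 and 11157 CPM with a median of -0.03. The hexosamine pathway, on which the targeted enzyme acts, was represented by Gfpt1, the related first enzyme, at 37.4 and 33.8 CPM, a ratio of -0.14 (-1.0 to 0.70), and by Ogt, which adds the sugar to proteins, at 128 and 101 CPM, a ratio of -0.35 (-0.82 to 0.12). The 13 MHC class I genes had a median of 0.07 and the 16 genes of receptor signalling, such as Lck at 329 and 314 CPM, of 0.15. In the cytokine receptor list Il2rb was at 288 and 408 CPM, a ratio of 0.50 (0.24 to 0.77). Il4ra, with 24 and 43 UMIs, was the 1 of 13 past 2-fold, beside 0.785% of all 6753 genes past 2-fold higher.

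Several of the named genes are better known from other cells. Spp1 (osteopontin) had a ratio of 1.48 (1.10 to 1.86), at 107 and 298 CPM, against 246 and 116 CPM in cells without CD3 UMIs. A single control cell held 55 of its 160 UMIs and a knockdown cell 99 of 361, and without both the ratio was 1.62. Without the macrophage and tumour limits the ratio of Spp1 was 0.05. H2-Ab1 and H2-Eb1, chains of MHC class II, had ratios of 1.10 and 1.00, but without the 2 control and 6 knockdown cells that had at least 10 class II UMIs the ratios were 0.20 and 0.44. Dcn and Col6a2, matrix genes, had ratios of -0.92 and -0.84 and were at 844 and 924 CPM, and 166 and 186 CPM, in cells without CD3 UMIs. Without the macrophage and tumour limits their ratios were -0.42 and -0.03. Igfbp7 had a ratio of -1.0, but 1 control cell, the one with 78 UMIs of the endothelial list, held 73 of 114 UMIs together with 29 of Plvap, 11 of Cdh5 and 11 of Emcn, endothelial genes, and without the richest cells the ratio was 0.16. The heat shock gene Hspa1b had a ratio of -0.77, while Hspa1a, its near copy, was at 64.1 and 61.0 CPM. Gm47283, Morrbid and the adhesion gene Dscam had ratios of -0.81, -0.76 and -0.84, of which Dscam alone was nearly absent from cells without CD3 UMIs (0.84 and 0.60 CPM).

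The remaining higher genes were low or nearly silent in cells without CD3 UMIs. Nrgn, a calmodulin-binding protein, was at 75.4 and 163 CPM, a ratio of 1.11 (0.63 to 1.59), against at most 0.59 CPM in cells without CD3 UMIs. Abcb9, a lysosomal peptide transporter, was at 68.1 and 139 CPM, a ratio of 1.03 (0.53 to 1.55), in 72 and 110 cells. Gm19585, an uncharacterised gene, was at 42.7 and 86.6 CPM, a ratio of 1.02 (0.38 to 1.67), in 49 and 82 cells with at most 4 UMIs in any of them.

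The CD8 T cells also differed among themselves in splits on a UMI of Havcr2, Tcf7 or Gzma. Most genes given here went the same way in both libraries, and how many of all genes did so was not counted. A UMI is found more easily in deep cells, and cells with Havcr2 had medians of 4905 and 4064 UMIs against 3234 and 2881 without, so levels are compared as CPM. The 53 control and 83 knockdown cells with Havcr2 (16.2% and 28.3%) had more Prf1 than the rest, 580 against 120 CPM in control and 1199 against 226 CPM in knockdown cells. They also had more Ccl3 (362 against 61.0, and 737 against 123 CPM) and Ifng (1219 against 430, and 1194 against 587 CPM). Tnfrsf9, Lag3 and Pdcd1 were higher in them as well, and Ly6c2 and Klf2 lower. Cd74, a gene of the dendritic cell list, was also higher in them (693 against 199, and 1071.5 against 330 CPM). The part of other cells in this was not tested. Prf1 was higher in the knockdown library within both kinds of cell, with ratios of 1.05 (0.70 to 1.40) in cells with Havcr2 and 0.91 (0.46 to 1.37) in cells without. The same held for Ccl3, at 1.02 (0.59 to 1.47) and 1.02 (0.39 to 1.65), and for Klrh1, at 1.77 (1.12 to 2.45) and 1.44 (1.00 to 1.89). Gzmb differed with the split: its ratio was 1.16 (0.83 to 1.5) in cells with Havcr2 and -0.25 (-0.51 to 0.01) in cells without, a difference that was not tested. The knockdown cell with 141 Gzmb UMIs had Havcr2, and without the richest Gzmb cell of each library these ratios were 0.71 (0.36 to 1.07) and -0.16 (-0.43 to 0.10).

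The cells with Tcf7 were few, 26 and 18, and shared 1 cell in each library with those with Havcr2. Tcf7 was found in a larger share of tumour-like cells, and the part of background in these UMIs was not tested. They had almost no Prf1, with 0 UMIs in control and 3 in knockdown cells, where the other cells had 326 and 638. Xcl1 was higher in them, at 686 against 139 CPM in control and 414 against 161 CPM in knockdown cells. Id3, which goes with Tcf7 in memory-like cells, was higher too (167 against 55.9, and 557 against 51.4 CPM). So were Cd160 (235 against 45.8, and 213 against 61.2 CPM) and Ly6c2. Id3 was also found in 50.4% and 51.3% of tumour-like cells, at 67.8 and 80.0 CPM. Igfbp3 was at 637 against 0.72 CPM in control and had 0 UMIs in knockdown cells. Gzmb was lower, at 225 against 583 CPM and 332 against 768 CPM, and Tnfrsf9 lower as well. Tox was at 431 against 435 CPM in control and 332 against 543 CPM in knockdown cells.

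The 59 control and 13 knockdown cells with Gzma, a split added after the data were seen, differed from the other members in many genes. They had more Ccl5, at 6521 against 1655 CPM in control and 7999 against 1715 CPM in knockdown cells, more Gzmk (215 against 48.3, and 509 against 61.4 CPM) and more Gzmb (1651 against 334, and 1809 against 702 CPM). Cxcr3 (102 against 23.3, and 127 against 12.8 CPM), Ly6c2, Itgb7 and Lef1 were higher in them too. Pdcd1 was lower, at 66.5 against 232 CPM in the control library, and had 0 UMIs in the 13 knockdown cells. Tox (113 against 501, and 178 against 540 CPM), Nr4a2, Irf8 and Prf1 were lower in both libraries. Of these cells 6 and 2 also had Havcr2, 1 and 1 had Tcf7, and 0 and 0 had a UMI of Gzmd to Gzmg.

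The members without a Gzma UMI are described next. They were picked by the gene with the lowest ratio, so their values are no test, and the part of the cells with Gzma in other differences was not tested. Among the cells without Gzma, Ccl5 was at 1655 and 1715 CPM, a ratio of 0.05 (-0.07 to 0.18). In the same cells the ratio of Ly6c2 was -0.46 (-0.86 to -0.06) and that of Cxcr3 -0.87 (-2.23 to 0.43). The ratio of Gzmb was 1.07 (0.83 to 1.31), and that of Prf1 was 1.16 (0.89 to 1.44). The knockdown cell with 141 Gzmb UMIs had 0 of Gzma and is among them. Without it the ratio of Gzmb was 0.81 (0.56 to 1.06).

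**Figure D4:**
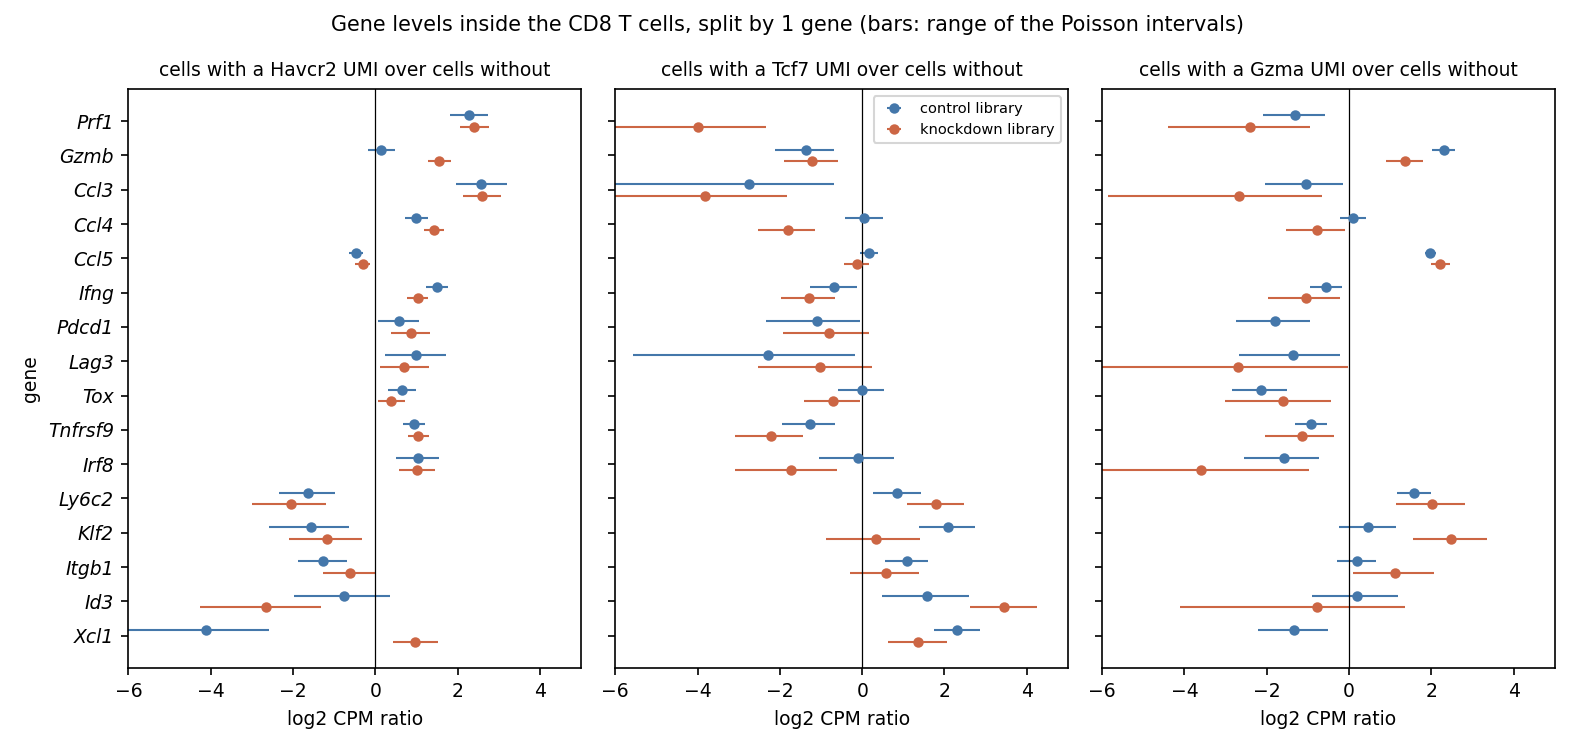
Log2 CPM ratio of 16 genes between CD8 T cells with and without a UMI of Havcr2, Tcf7 or Gzma, in each library, with the range of the Poisson intervals; genes with 0 UMIs on 1 side have no point, and bars end at the panel's edge. Prf1, Ccl3 and Ifng lie to the right for Havcr2 in both libraries and to the left for Tcf7 where they could be plotted, and Ccl5 and Gzmb lie to the right for Gzma while Pdcd1, Tox and Irf8 lie to the left.

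Cells with at least 2 UMIs of the G2 and M phase list were 166 (50.8%, 45.2 to 56.3) in control and 139 (47.4%, 41.6 to 53.3) in knockdown cells, and were deeper, with medians of 4337 and 4306 UMIs against 2695 and 2516. They had less Ly6c2 (187 against 412, and 106 against 251 CPM), less Bcl2, a survival factor (462 against 731, and 431 against 791 CPM), and less Ccl5 (1820 against 3653, and 1635 against 2391 CPM). Prf1 was higher in the knockdown library in both kinds, with ratios of 0.94 (0.58 to 1.30) and 1.70 (1.28 to 2.12), and Gzma lower in both, at -2.50 (-3.01 to -2.0) and -2.77 (-3.48 to -2.10). Mki67 itself was found in 46.3% and 46.2% of tumour-like cells, a dividing population, so no background from a silent cell type was at hand and the shares are not read as shares of dividing cells.

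Other lymphocytes under the same limits were few, with 18 and 14 CD4 conventional T cells, 10 and 7 regulatory T cells, and 43 and 42 NK cells, and the CD8 T cells were set beside the NK cells. NK cells are defined here by Ncr1 or Klrb1c with at least 2 UMIs of these, Klre1 and Gzma and no CD3 UMI, so levels of those 4 genes in NK cells against CD8 T cells are no finding. The classes also differ by rule in CD3, so a lead of T cell genes such as Themis, Bcl11b and Trac is no finding either. Genes were ranked by the smaller of the 2 libraries' ratios, among those with at least 30 UMIs over both libraries in the higher class. Against NK cells the genes most in favour of CD8 T cells in both libraries were Themis, Gm8369, Klrh1 and BE692007. Themis, a T cell signalling protein, had 451 and 407 UMIs against 0 and 0. Next came Trgc2, a constant gene of the gamma chain, Bcl11b, the factor of T cell identity, and Trac. Klrh1 had 169 and 416 UMIs in CD8 T cells and 0 and 1 in NK cells. Among the 10 genes most in favour of NK cells were Gzmg, Gzmc, at 18426 and 16923 CPM against 206 and 107 CPM in CD8 T cells, Klrb1f and Gzmd.

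Several granule genes differed between the libraries in NK cells as well, other cells of the same 2 libraries. Prf1 was at 766 and 1016 CPM there, a ratio of 0.41 (0.03 to 0.78), against 1.28 in CD8 T cells. Gzmf was at 308 and 7648 CPM, a ratio of 4.63 (4.27 to 5.01). Gzmd, Gzme and Gzmg had ratios of 1.05, 2.40 and 2.49. How far a single NK cell held these UMIs was not examined, so the NK values may rest on few cells. Gzma, part of the NK rule, was at 2647 and 3692 CPM, a ratio between the libraries of 0.48 (0.28 to 0.68). In the 41 and 41 NK cells chosen on Ncr1, Klrb1c and Klre1 alone, a rule added after the data were seen, it was 0.51 (0.31 to 0.71), against -2.59 in CD8 T cells, and the difference between the classes was not tested. Ccl4 had a ratio of 2.56 (2.08 to 3.06) and Ifng of 1.39 (0.69 to 2.11) in NK cells. The CD4 and regulatory T cells were too few to compare: Pdcd1 had 8 and 2 UMIs in the former and 1 and 5 in the latter.

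**Figure D5:**
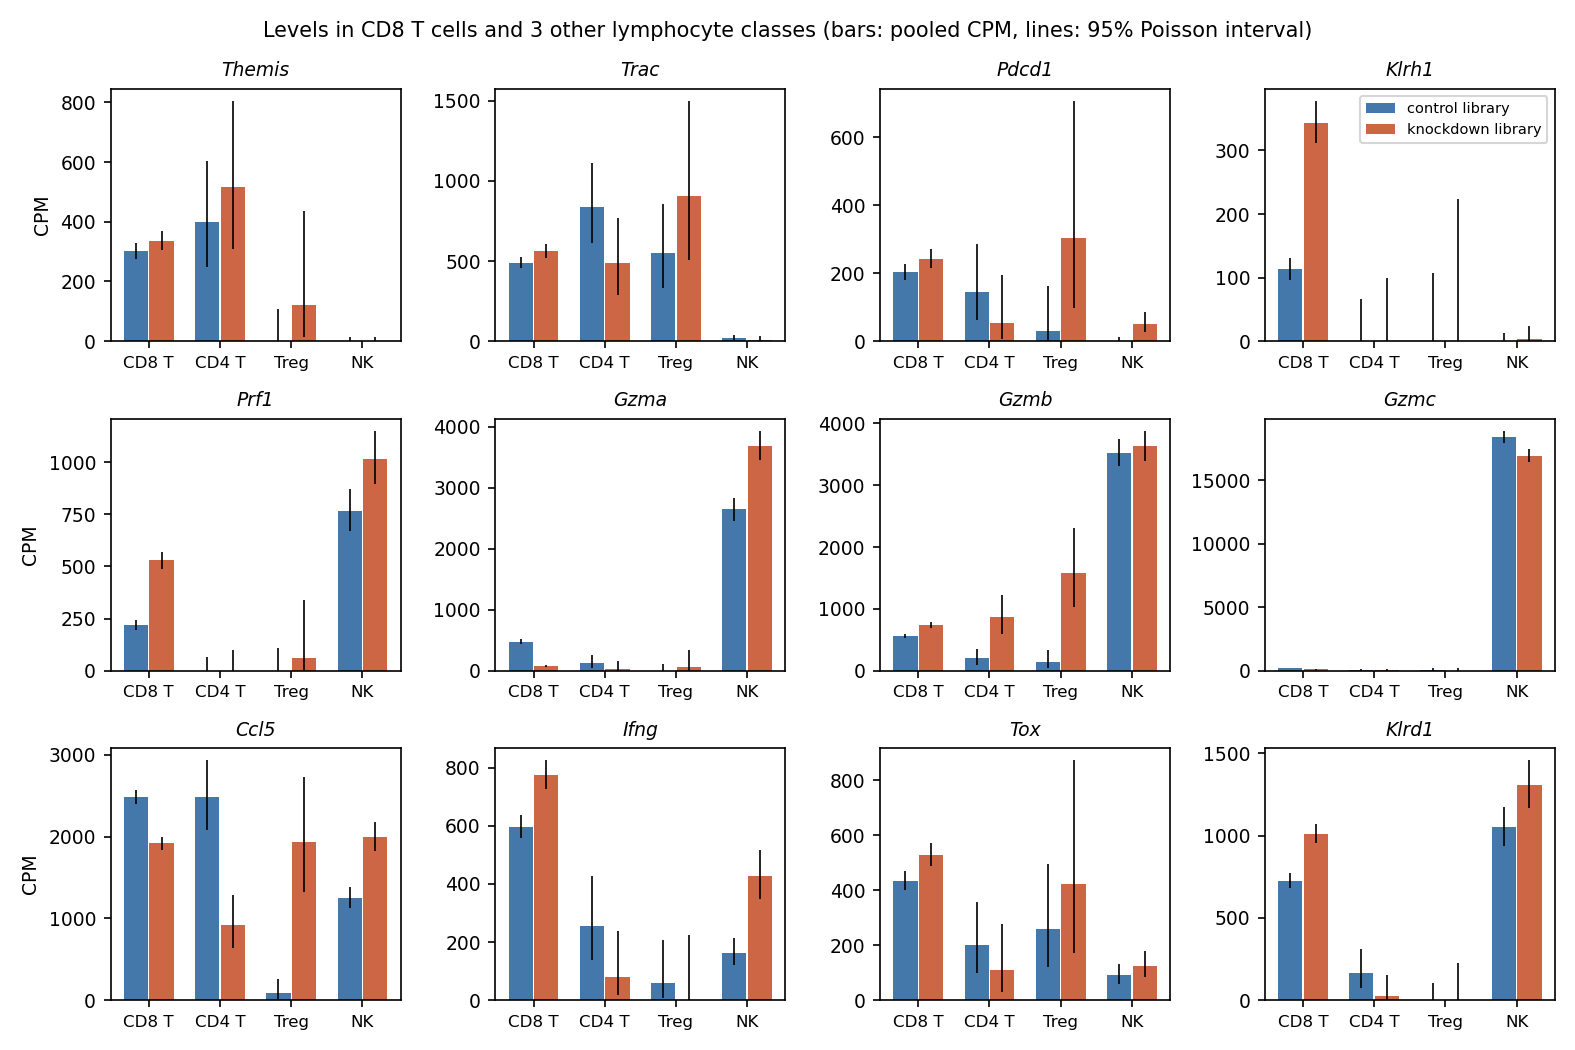
CPM of 12 genes in CD8 T cells, CD4 conventional T cells, regulatory T cells (Treg) and NK cells of each library, with 95% Poisson intervals. Klrh1 was found in CD8 T cells and had 1 UMI in NK cells, Gzmc was far higher in NK cells, and the wide intervals of the CD4 and regulatory T cells reflect 7 to 18 cells per library.

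Variable genes of the T cell receptor, from which a clone's receptor is assembled, were sparse. A Trav UMI was found in 31 (9.48%) control and 38 (13.0%) knockdown cells and a Trbv UMI in 12 (3.67%) and 16 (5.46%), so clones could not be followed. Of all variable genes the 3 found in most cells were Trgv2 (21 cells, 6.42%), Trav16n (9) and Trav16d-dv11 (7) in the control library and Trav16 (19, 6.48%), Trgv2 (18, 6.14%) and Trbv12-1 (6) in the knockdown library. Because the Trav16 genes are near copies, their sum is safer: 18 cells (5.5%, 3.29 to 8.56) in control and 29 (9.90%, 6.73 to 13.9) in knockdown cells, intervals that overlap. Trgv2 is a variable gene of the gamma chain, and no member had a UMI of the delta chain genes named Trdv in either library. Taken as 3 cells over the number of members, this allows a share of up to 0.917% and 1.02% of cells with such a UMI. With Trbv found in so few members, this limit bounds detection and not the use of these genes. Genes named for both chains, such as Trav16d-dv11 (7 and 5 cells), are not in the Trdv count. A UMI of Trdc or Scart1 was seen in 9 control and 1 knockdown members.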

How the data were processed

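Single-cell RNA of 1 control and 1 GFPT2-knockdown library was analysed. The authors deposited raw UMI counts for each gene in each cell. According to the headers Cell Ranger 6.1.0 wrote these files, whereas the submitters' processing notes name Cell Ranger 3.1.0. The genome build, annotation and kit chemistry are not given in the sources used here, and coordinates and promoter sequences come from RefSeq on GRCm38.p6, matched by symbol. The members and gene lists were chosen with earlier results of these data known. Cells were sorted into classes by UMI counts, with no clustering, and doublets were kept in the main values and left out by Scrublet (scanpy 1.11.5) in an alternative.

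Counts were summed per library and divided by all UMIs of the same cells. Intervals are exact Poisson for CPM and Clopper-Pearson for shares, and the range of a ratio combines the outer bounds, which makes it wide. Shares of cells were taken after thinning to 2000 UMIs. Genes with at least 30 UMIs in 1 library were counted. Named genes are the 12 highest and 12 lowest ratios whose range excludes 0 among genes with at least 100 UMIs in 1 library, without the genes of the rule, mitochondrial genes and genes at under 1/5 of their level in cells with no CD3 UMI. Members of a list with at least 30 UMIs, and the 3 most frequent variable genes, could also be named, and genes of the other cell types were named below that count. Cells with no CD3 UMI, at least 5 UMIs of Hmga2, Tnfrsf12a and Igf2bp2 and within the macrophage limits served as tumour-like cells, a choice made after seeing the data, as were the splits on Gzma and on Gzmd to Gzmg. The ratio script was tested on simulated data. Python 3.11.15, numpy 2.4.6, scipy 1.17.1, pandas 2.3.3, R 4.3.3 and edgeR 4.0.16 (TMM scaling only, as an alternative) were used. The other alternatives changed the cell rule, the scaling, the count minimum and the thinning depth.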

Additional observations from a re-analysis of the deposited data

Results flagged for a closer look

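Granzyme A had a log2 ratio of -2.59 in CD8 T cells and of 0.48 (0.28 to 0.68) in NK cells of the same libraries, opposite directions with both ranges away from 0. The NK rule used Gzma, so that NK value is a description, and in NK cells chosen without Gzma the ratio was 0.51 (0.31 to 0.71). The difference between the classes was not tested, since each library is 1 sample.

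The matrix gene Dcn had a ratio of -0.92 in CD8 T cells and of 3.75 (1.14 to 7.46) in CD4 conventional T cells, which numbered 18 and 14. With Scrublet doublets left out, the ratio of Dcn in CD8 T cells was -0.49, outside its counting range (-1.18 to -0.67). The heat shock gene Hspa1b had a ratio of -0.77 in CD8 T cells and of 1.70 (0.28 to 3.20) in the same CD4 cells. Neither difference was tested.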

How the results depend on the processing

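No paired analysis was possible because each group has 1 library. With a minimum of 100 UMIs, 11 genes were past 2-fold higher and 2 lower in CD8 T cells, and with a minimum of 10 UMIs 277 and 322, over 2597 and 10193 genes. Without the macrophage and tumour limits 63 were higher and 44 lower, against 53 and 67. In that setting Gzmc had a ratio of 0.0068, Rsad2 of 0.21 and Cxcl10 of 0.38, each with the sign changed, and the cause was not tested. Without the richest cell of each library the sign changed for Gzmd (-0.50), Igfbp7 (0.16) and Gzmc (0.016), and without the cells rich in MHC class II for Igfbp7 (0.51); both settings were chosen after seeing the data. Without the cells that held Gzmd to Gzmg, also chosen then, the median of the cytotoxic granule list was 0.044, a setting that removes these 4 genes from the list by construction. The ratio of the shares of cells with Prf1 was 2.21 when thinned to 1000 UMIs, against 1.35 at 2000, and the cause was not tested. Of the ratios of named genes under alternatives, 282 moved by less than their counting range, 20 moved further with the same sign and 7 changed sign. TMM and median-of-ratios scaling each shifted log2 ratios by -0.02. Ratios near 0 of genes under about 100 UMIs are limited by depth, and no interval covers the spread between animals.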
